A study of Mus musculus with 677 samples.

Results

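Late enterocyte progenitors are cells of the absorptive lineage of the intestine, labelled by the authors as a stage between dividing early progenitors and mature enterocytes. They were taken as the libraries whose name ends in the authors' label Enterocyte.prog.late, which gave 75 of the 677 single-cell libraries of the series. The cells came from the intestinal epithelium of C57BL/6 mice, either wild type (WT) or carrying a knockout (KO) of Atg16l2, whose paralogue Atg16l1 acts in autophagy. The labels give neither the age of the mice, nor the segment of the intestine, nor how the knockout was made, and what both genotypes share is the strain. Each library name holds M1 or M2, read here as an animal of that genotype, and a run number of 1 or 2. The labels do not say whether a code stands for the same mouse in both runs, and its runs were pooled here. On that reading WT M1 gave 22 late progenitors, WT M2 gave 21, KO M1 gave 10 and KO M2 gave 22, with 40 in run 1 and 35 in run 2.

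Enterocytes arise from crypt cells that stop dividing, move up the villus and build a brush border, the densely packed membrane that carries digestive enzymes and nutrient transporters. Absorbed fat is bound by fatty acid binding proteins and packed into chylomicrons, and dietary vitamin A is bound and oxidised by a set of retinoid proteins. The authors' labels place late progenitors after Enterocyte.prog.early and before Enterocyte (58 cells), and these neighbours are the reference throughout. Values are TPM, a length-scaled share of a cell's transcripts, averaged over the cells of an animal. Differences are on the log2(mean TPM + 1) scale and are averages over 4 animals with their SD. The authors annotated the types from these same cells, so the differences between types are a description and carry no test.

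The cells detected a median of 6079 genes above 0 TPM (range 4302 to 8400), against 6713 in early progenitors and 5850.5 in enterocytes. Run 1 late cells detected more genes (median 6431.5) than run 2 cells (5373). TPM keeps no sequencing depth, so the depth behind each value is unknown. Of 8 tuft markers 5 were at 0 in all late cells and the list summed to at most 7.10 TPM in a cell. Of 9 goblet markers 2, the transcription factors Atoh1 and Spdef, were at 0. The goblet list summed to at most 2264 TPM in a late cell, and 20 of 75 late cells held none of it. Of 10 T cell markers 5 were at 0. Of the enteroendocrine, B cell, myeloid and stromal lists, 4 of 10, 2 of 6, 3 of 7 and 3 of 9 markers were at 0. The list of stromal, endothelial and red cell markers summed to 36.3 to 64.9 TPM over the animals, of which the haemoglobin gene Hba-a1 made up a mean of 31.9 TPM, and 23 of 75 late cells held none of the list. The summed list's median over cells was 38.2 TPM, against 6.77 in early progenitors and 9.68 in enterocytes. The part of these markers in the results was not tested. Goblet markers summed to 29.6 to 213.8 TPM, highest in KO M2. Of the late cells 24 held none of the 9 Paneth cell markers, and in 1 cell of KO M2 in run 2 these held 19.7% of all TPM. Run 1 late cells of KO M2 also stood apart in their position along the lineage, given below. KO against WT values without those cells, or without the Paneth-marker-rich cell, are given beside the results they move. Both settings were chosen with the values known. Without the run 1 cells of KO M2, run 1 cells remained only in WT M1, WT M2 and KO M1. The runs were then less balanced between genotypes.

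The markers of the population were intermediate in level. Fabp1, the fatty acid binding protein of the proximal gut, stood at 448.0 and 1102 TPM in late cells of the WT animals M1 and M2 and at 1010 and 1465 TPM in those of the KO animals M1 and M2. In early progenitors Fabp1 ranged from 120.2 to 361.8 TPM over the animals and in enterocytes from 2198 to 7341 TPM, so the 3 types did not overlap. Adh1, an alcohol dehydrogenase that oxidises retinol, averaged 165.7 ± 63.3 TPM in early progenitors, 535.8 ± 271.8 TPM in late progenitors and 822.0 ± 437.4 TPM in enterocytes (SD, n = 4 animals). Ces2c, a carboxylesterase, averaged 78.1 ± 36.8, 211.4 ± 118.8 and 419.3 ± 139.9 TPM in the same order (SD, n = 4). None of the 3 was highest in late progenitors: Fabp1 and Ces2c were highest in enterocytes, and Adh1 was highest in tuft cells (5480 TPM, 7 cells). For all 3 the mean in late progenitors lay between those of the neighbours. Adh1 was above 0 TPM in 73.3% of late cells, Fabp1 in 77.3% and Ces2c in 80%.

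**Figure D1:**
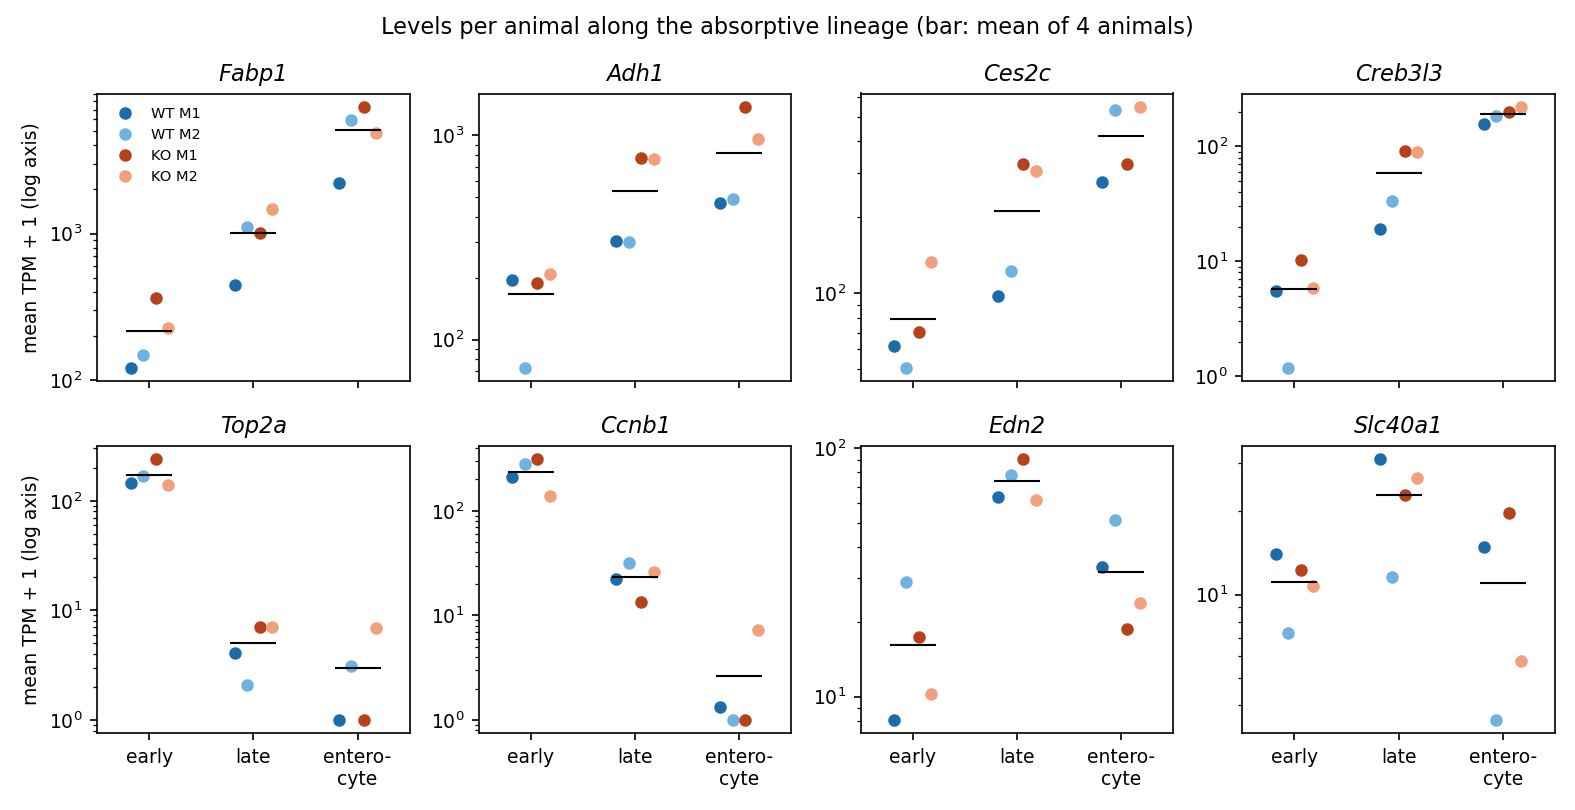
Mean TPM + 1 (log axis) of 8 genes in early progenitors, late progenitors and enterocytes, with 1 point per animal and a bar at the mean of 4 animals. Fabp1, Adh1, Ces2c and Creb3l3 climb over both steps, Top2a and Ccnb1 drop, and Edn2 and Slc40a1 are highest in late progenitors.

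The sequence just before the start of 4 of the genes that climb along the lineage is shown. These 4 were chosen because their windows hold a marked motif. The stretches are the 250 bases before the RefSeq start in GRCm38.p6, 5′ to 3′ on the gene's own strand, and the build used for the deposited values is not given in the sources used here. Capitals mark 2 short motifs searched on both strands, TTTATGG for CDX factors and AGATAA for GATA factors. The windows are Fabp1 at chr6:71199629-71199878 (plus strand), Adh1 at chr3:138277335-138277584 (plus strand), Rbp2 at chr9:98490287-98490536 (plus strand) and Creb3l3, at 1 of its 2 starts, at chr10:81092592-81092841 (minus strand).
Fabp1: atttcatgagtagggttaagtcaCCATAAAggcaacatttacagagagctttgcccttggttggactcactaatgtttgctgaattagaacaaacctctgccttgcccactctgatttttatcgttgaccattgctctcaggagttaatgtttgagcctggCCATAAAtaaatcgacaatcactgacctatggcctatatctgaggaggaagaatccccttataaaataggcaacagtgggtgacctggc
Adh1: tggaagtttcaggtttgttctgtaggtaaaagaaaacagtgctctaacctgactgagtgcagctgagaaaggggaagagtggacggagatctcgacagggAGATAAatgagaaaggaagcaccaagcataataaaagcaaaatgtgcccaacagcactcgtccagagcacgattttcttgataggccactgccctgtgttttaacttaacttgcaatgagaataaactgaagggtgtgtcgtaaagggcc
Rbp2: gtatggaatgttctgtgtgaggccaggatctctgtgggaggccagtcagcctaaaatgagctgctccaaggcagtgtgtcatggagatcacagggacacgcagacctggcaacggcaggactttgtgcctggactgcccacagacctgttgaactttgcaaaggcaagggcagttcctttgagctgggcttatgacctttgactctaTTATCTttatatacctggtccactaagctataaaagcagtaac
Creb3l3: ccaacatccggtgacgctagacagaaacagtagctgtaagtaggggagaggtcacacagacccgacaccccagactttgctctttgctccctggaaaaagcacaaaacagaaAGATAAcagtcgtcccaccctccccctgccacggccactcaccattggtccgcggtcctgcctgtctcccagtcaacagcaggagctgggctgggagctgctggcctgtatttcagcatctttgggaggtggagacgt
In windows that also take in 50 bases after the start, AGATAA was found in 17.04% of promoters of genes higher in late than in early progenitors and in 4.98% of 422 promoters of genes lower there. Among 6074 promoters of all genes kept it was found in 6.47%, and among all 32851 promoters in 11.2%. The HNF4 motif CAAAGTCCA was found in 2.69%, 0.237%, 0.675% and 0.475% of the same 4 sets, and TTTATGG in 1.79%, 1.90%, 1.79% and 2.75%. Of the genes that peaked in late progenitors, Edn2 and Acot2 had a promoter in the table, and neither held any of the 3 motifs. In the 250 bases before the start, the windows of Ces2c, Anpep, both starts of Rdh7, the other start of Creb3l3 and 1 of 2 starts of Aldh1a1 held none of the 3 motifs, and the other Aldh1a1 start held AGATAA once. A match is a description of letters and not of a bound site.

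From early to late progenitors, 3.58% of 6360 genes were higher and 7.19% lower, by the rule of at least 2-fold on average and the same direction in 4 of 4 animals. The genes kept had a mean of at least 10 TPM and were above 0 TPM in at least 10% of cells, and their median difference was -0.07. The largest gain was in Creb3l3, a transcription factor of lipid handling, which averaged 4.70 TPM in early and 57.3 TPM in late cells (log2 difference 3.43 ± 1.29, SD, n = 4). Slc2a5, the fructose transporter, was higher by 3.03 ± 1.52 and Anpep, the brush border aminopeptidase N, by 2.77 ± 0.61 (SD, n = 4). Anpep stood at 18.8, 33.1, 48.7 and 62.9 TPM in the early progenitors of the 4 animals and at 215.6, 230.5, 193.1 and 474.3 TPM in late ones, with no overlap. Bco2, which cleaves carotenoids, differed by 2.82, the guanylin gene Guca2a by 3.07, and the cytokine gene Il18 by 2.43. The other 6 of the 12 genes highest by this rule were Hsd17b6, Akr1b7, Fam151a, Eci3, the dipeptidase Dpep1 and the vasoactive peptide gene Edn2, at 2.35 to 2.85.

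The 12 genes with the largest loss included histones and genes of cell division. Of these, Hist1h2ao, an H2A histone gene with near-identical copies whose level is therefore uncertain, went from 1687, 2242, 994.2 and 565.6 TPM in early cells of the 4 animals to 15.3, 50.2, 0 and 4.08 TPM in late cells. Aurkb, a kinase of chromosome segregation, differed by -6.64 ± 0.93 and Top2a, which untangles replicated DNA, by -5.22 ± 0.84 (SD, n = 4). Ccnf and Neil3 were listed at 0 in all late cells. Cdk1, the main kinase of mitotic entry, differed by -5.11, and Asf1b, Nusap1, Hist2h3b, Prc1, Ncaph and Spc25 by -5.49 to -4.81.

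From late progenitors to enterocytes, 4.42% of genes were higher and 6.12% lower, with a median over all genes kept of -0.15. Several transporters and enzymes of mature enterocytes were nearly missing in late progenitors. Lct, lactase, stood at 0.12, 3.39, 5.14 and 6.07 TPM in late cells of the 4 animals, WT first, and at 115.5, 174.9, 98.8 and 98.1 TPM in enterocytes. Lct was above 0 TPM in 22.7% of late cells (exact 95% binomial interval 13.8 to 33.8%) and in 75.9% of enterocytes (62.8 to 86.1%). Such intervals on cells pooled over animals and runs cover counting error only, here and below. Cyp2b10, a drug-metabolising cytochrome, had the largest gain (6.71 ± 1.12, SD, n = 4) and was above 0 TPM in 1.33% of late cells. The glucose transporter Slc2a2 gained 5.12, the peptide transporter Slc15a1 4.34, the amino acid transporter Slc6a19 4.23 and the citrate transporter Slc13a2 4.60. Apoa1, a chylomicron and HDL apolipoprotein, stood at 165.1 to 445.0 TPM over the animals' late cells and at 4303 to 10487 TPM in enterocytes, a difference of 4.80 ± 1.12 (SD, n = 4). Dnase1, Gde1, Ggt1, Cyp3a11 and Leap2 completed the 12, at 4.28 to 5.61.

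Cell division genes were also among the losses of this second step. Ccnb2, a cyclin of mitosis, still stood at 159.96, 93.4, 174.1 and 56.2 TPM in late cells and at 5.49 to 16.98 TPM in enterocytes (-3.05 ± 1.33, SD, n = 4). Cdca3, Cenpa, Cdkn3, Nek2, Knstrn, Ccnb1 and Cdc20, which act in mitosis, differed by -3.78 to -3.02. The remaining losses were Cmtm7 (-4.25), the DNA repair gene Tdp1 (-2.96), Fam129b (-3.21) and Kcnn4, an epithelial potassium channel (94.5, 118.4, 53.3 and 89.4 TPM in late cells, and 0.51, 0.14, 14.7 and 24.4 TPM in enterocytes). In enterocytes the Kcnn4 levels of both KO animals lay above those of both WT animals.

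**Figure D2:**
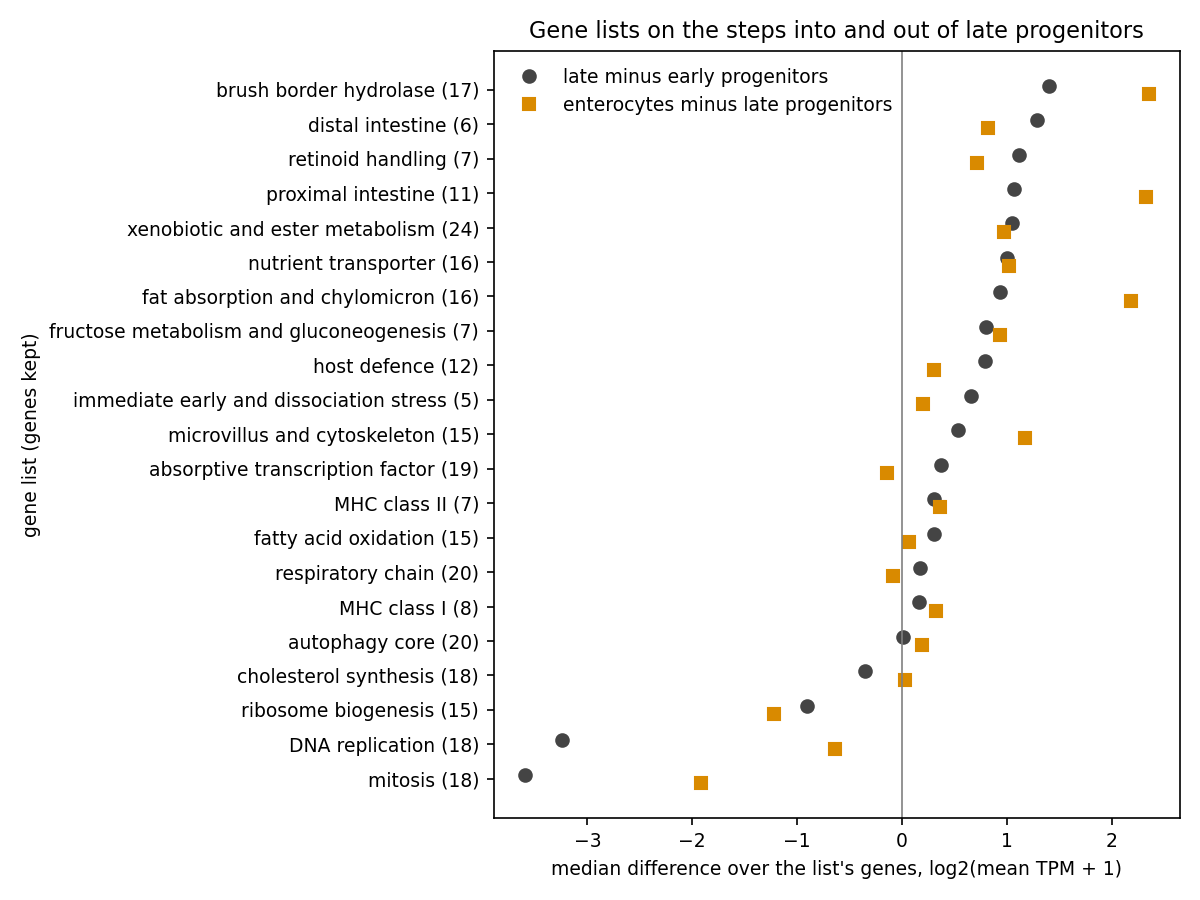
Median difference over the genes of each list on the log2(mean TPM + 1) scale, for late minus early progenitors (circles) and enterocytes minus late progenitors (squares), with the number of genes kept in brackets. Mitosis and DNA replication lie lowest on the step into late progenitors, and brush border hydrolases and proximal intestine genes lie highest on the step out.

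Lists of pathway genes set these steps in order. In the DNA replication list 17 of 18 genes kept were lower in late than in early progenitors, with a median of -3.24, and 4 were lower again in enterocytes, with a median of -0.64. Mcm3, a subunit of the replicative helicase, averaged 77.97 TPM in early, 2.37 in late and 1.93 TPM in mature cells. The mitosis list was lower for 18 of 18 genes at the first step (median -3.60) and for 9 of 18 at the second (median -1.91). Ribosome biogenesis was lower for 6 of 15 genes and then for 11 of 15, with medians of -0.91 and -1.22, and Gnl3, a nucleolar GTPase, averaged 35.3, 12.8 and 2.81 TPM along the lineage. The background for these counts is 7.19% lower at the first step and 6.12% at the second.

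Absorptive lists went the other way, against a background of 3.58% higher at the first step and 4.42% at the second. Of 17 brush border hydrolases 8 were higher in late than in early progenitors and 13 higher in enterocytes than in late ones, with medians of 1.40 and 2.35. Sis, sucrase-isomaltase, averaged 47.45, 184.2 and 537.5 TPM in early, late and mature cells. Fat absorption and chylomicron genes were higher for 7 of 16 and then 13 of 16 (medians 0.94 and 2.18). Nutrient transporters were higher for 7 of 16 and then 8 of 16 (1.003 and 1.02), and 1 of them, the iron exporter Slc40a1, was lower at the second step. Xenobiotic and ester metabolism was higher for 10 of 24 and then 11 of 24 (1.05 and 0.97), and retinoid handling for 4 of 7 and then 3 of 7 (1.11 and 0.71). Microvillus and cytoskeleton genes were higher mainly at the second step (3 of 15, then 9 of 15). In host defence, 5 of 12 genes were higher at the first step and 3 of 12 at the second, where Duox2 and Duoxa2, which form the epithelial hydrogen peroxide oxidase, were the 2 lower genes. Duoxa2 averaged 42.9, 38.5 and 7.75 TPM along the lineage.

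Several lists passed the same rule for few genes or for none. The transcription factors of the absorptive lineage were higher for 3 of 19 genes at the first step (Creb3l3, Nr1i3 and Maf) and for 1 of 19 at the second (Creb3l3), where Hes1, a Notch target, was lower. Hnf4a, a master regulator of enterocytes, averaged 155.95, 104.4 and 74.01 TPM along the lineage, and its paralogue Hnf4g 61.88, 117.3 and 164.8 TPM, without passing the 2-fold rule. None of 20 respiratory chain genes, 20 autophagy core genes, 7 MHC class II genes or 8 MHC class I genes passed at either step. Of 18 cholesterol synthesis genes 2 (Sqle and Insig1) were lower at the first step and 1 (Nsdhl) at the second.

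Few genes peaked in late progenitors. By the rule of 2-fold over both neighbours and above both in 4 of 4 animals, 5 of 6360 genes did (0.0786%), while 8 were lowest there, 91 climbed over both steps and 108 dropped over both. Without WT M1, and likewise without KO M1, 10 genes peaked. Gsdmc2 and Gsdmc4, gasdermin C genes whose near-identical family makes their split uncertain, peaked together. Gsdmc4 stood at 365.3, 180.8, 389.4 and 402.8 TPM in late cells of the 4 animals. Its levels there overlapped with those of early cells (102.5 to 199.9 TPM) and of enterocytes (42.9 to 286.7 TPM). Gsdmc2 stood at 154.6, 76.7, 142.99 and 79.9 TPM in early cells of the 4 animals, at 185.5, 235.3, 253.9 and 278.1 TPM in late cells and at 141.9, 52.1, 19.6 and 19.004 TPM in enterocytes. Edn2, endothelin 2, stood at 62.5, 76.97, 89.8 and 61.2 TPM in late cells, above the 7.04 to 27.9 TPM of early cells and the 17.8 to 50.2 TPM of enterocytes, with no overlap. Slc40a1, ferroportin, stood at 29.97, 10.6, 21.9 and 25.5 TPM and overlapped with both neighbours. Acot2, a mitochondrial thioesterase, stood at 8.76, 15.6, 26.8 and 19.2 TPM and overlapped with enterocytes (0.54 to 16.2 TPM). It averaged 5.11 TPM in early cells, 17.6 in late cells and 8.03 in enterocytes. The filter of a mean of 10 TPM therefore kept Acot2 only through its level in late cells. Edn2, Gsdmc2, Gsdmc4 and Slc40a1 were highest in late progenitors among all 9 types, and Acot2 in tuft cells. Just outside the rule lay Gamt, which makes creatine (1.41 above early cells and 0.91 above enterocytes), and Tmem203 (0.94 and 0.92). At 1.5-fold, a limit chosen with the values known, 15 genes peaked. In the other direction, Litaf stood at 10.1, 12.9, 7.04 and 8.01 TPM in late cells, below 19.4 to 32.8 TPM in early cells and 19.1 to 51.4 TPM in enterocytes. Ccdc61, Tmem177, Dtnbp1 and Zg16 were also lowest there, and the enterocyte mean of Zg16, a goblet cell lectin, came from KO M2 (1348 TPM against 4.16 to 22.6 TPM in the others).

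Individual late progenitors were spread over most of the path between their neighbours. Each cell was projected on the line from the mean early profile (position 0) to the mean enterocyte profile (position 1) over 6360 genes. The 75 late cells had a median position of 0.546, from 0.197 to 0.896, and 32 of them lay below the highest early progenitor and 44 above the lowest enterocyte. The position was weakly and negatively related to the number of genes detected (Pearson r = -0.211 across 75 cells, which share animals and runs).

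Mitosis transcripts marked the lower end of this range. At least 10 of 20 mitosis genes were above 0 TPM in 15 of 75 late cells (20%, exact 95% binomial interval 11.6 to 30.8%), against 85.2% of early progenitors (78.3 to 90.6%) and 2 of 58 enterocytes (3.45%). These 15 late cells had a median position of 0.385 (0.197 to 0.557) and the other 60 one of 0.590 (0.244 to 0.896). Their medians of genes detected were 6248 and 5898.5, and the mitosis genes are themselves part of the projection. The 15 cells made up 4 of 22 cells in WT M1, 5 of 21 in WT M2, 2 of 10 in KO M1 and 4 of 22 in KO M2. By run they were 11 of 40 late cells in run 1 and 4 of 35 in run 2, where fewer genes were detected per cell. Mki67, the proliferation marker, was above 0 TPM in 95.8% of early, 48.0% of late and 12.1% of mature cells. Across late cells the summed level of the mitosis list was negatively related to position (r = -0.605; -0.678 in run 1 and -0.467 in run 2), as was that of ribosome biogenesis (-0.583). That of brush border hydrolases was positively related to it (0.625; 0.671 and 0.541). Genes of these lists are also part of the projection, so the relations are not independent of it.

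**Figure D3:**
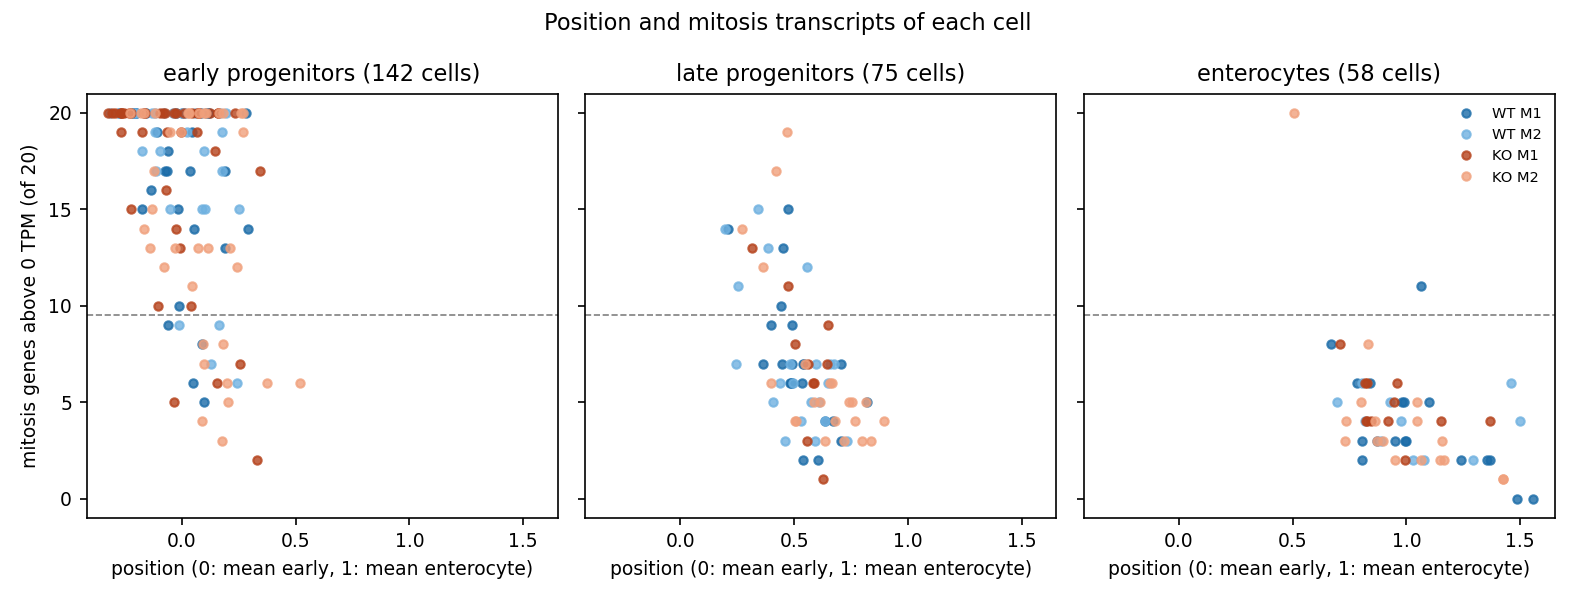
Number of 20 mitosis genes above 0 TPM in each cell (vertical axis) against its position between the mean early progenitor (0) and the mean enterocyte (1), with cells coloured by animal and a dashed line below 10 genes. The 15 late cells above the line lie at positions of 0.197 to 0.557, in all 4 animals.

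Among 2457 genes with a mean of at least 50 TPM in late cells, the median SD over cells was 1.89 on the log2(TPM + 1) scale. Reg3b, an antimicrobial lectin, varied most (SD 5.42), from 0 to 62923 TPM with a median of 232.1 TPM, and was above 0 TPM in 57 of 75 cells. Its relative Reg1 was above 0 TPM in 33 cells (SD 4.20). Reg3b went with Reg3g across cells (r = 0.587; 0.517 in run 1 and 0.647 in run 2) and not with Reg1 (r = -0.0268). H2-Aa (SD 4.05) and H2-Ab1 (3.98), chains of MHC class II, were above 0 TPM in 46 and 57 cells and went together (r = 0.738). Fabp1 (4.24) and Adh1 (4.19) were among the most variable genes as well. Fabp1 and Adh1 went together across late cells (r = 0.666) and with Rbp2, the intestinal retinol binding protein (r = 0.671 and 0.736). Both went against Fabp6, the ileal bile acid binding protein (r = -0.441 and -0.462), which was above 0 TPM in 20 of 75 cells. The summed lists of proximal and distal intestine genes were related by r = -0.202 across late cells.

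Rps27, Rpl26 and Rpl30, genes of short ribosomal proteins, and Atp6v0c, a proton pump subunit, made up the rest of the 10 most variable genes. Their detection followed the run: Rps27 was above 0 TPM in 45% of run 1 and 5.71% of run 2 late cells, and Rpl26 in 77.5% and 31.4%. Near-identical copies of ribosomal protein genes are common, so their levels are uncertain. The least variable genes were Eef1a1, Atp5b, Rpl4, Rps2 and Epcam (SD 0.28 to 0.33), all above 0 TPM in every late cell. Eef1a1, a translation elongation factor, ranged from 4040 to 13440 TPM.

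The comparison of genotypes asked what loss of Atg16l2 does to these cells. Atg16l2 itself was above 0 TPM in 1 of 43 WT late cells (2.33%, exact 95% binomial interval 0.0589 to 12.3%). It was listed at 0 in 32 KO late cells (exact 95% binomial interval 0 to 10.9%). Its mean was 1.10 TPM in WT M1 and 0 in WT M2, KO M1 and KO M2, so at this level the targeted transcript does not check the labels in late progenitors. Atg16l1 levels were 24.1 and 22.3 TPM in WT against 13.7 and 24.8 TPM in KO, so the genotypes overlapped (log2 difference -0.31, SE 0.45, limma Benjamini-Hochberg adjusted p = 0.952). By run it was 0.59 and -2.47.

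Of 7 retinoid handling genes tested, 1, Aldh1a1, passed as higher in KO late progenitors. Aldh1a1, which makes retinoic acid from retinal, stood at 16.02 and 18.2 TPM in the WT animals and at 90.3 and 79.8 TPM in the KO animals. Both KO animals lay above both WT animals, and the rise of 2.25 (SE 0.34) passed with a limma Benjamini-Hochberg adjusted p of 0.0454 over 6120 genes. The difference was 2.75 in run 1 and 1.96 in run 2, and 1.59 without the run 1 cells of KO M2, where the adjusted p was 0.925. Aldh1a1 was above 0 TPM in 6 of 22, 11 of 21, 5 of 10 and 12 of 22 cells of the 4 animals, WT M1 and M2 first.

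Adh1 and Ces2c, markers of the type, did not pass the test. Adh1 levels were 302.6 and 298.3 TPM in WT against 775.1 and 767.1 TPM in KO (1.36, SE 0.22, limma adjusted p = 0.0595), with 1.44 in run 1 and 1.25 in run 2. Ces2c levels were 96.8 and 121.3 against 323.2 and 304.3 TPM (1.52, SE 0.25, limma adjusted p = 0.0595), with 1.90 and 0.87 in the runs. Rdh7, a retinol dehydrogenase, differed by 1.68 (SE 0.31; 1.41 and 1.85 in the runs), with 89.96 and 51.2 TPM in WT against 235.9 and 204.6 TPM in KO. Rbp2 differed by 0.99 (SE 0.21), with 525.0 and 530.1 against 1081 and 1024 TPM, and by 1.17 in run 1 and 0.39 in run 2. Without the run 1 cells of KO M2 Adh1 differed by 0.95, Ces2c by 1.33, Rdh7 by 1.66 and Rbp2 by 0.62. Retsat, Dhrs3 and Isx, the other retinoid genes tested, differed by 0.16, 0.08 and -0.05, and their genotypes overlapped. For Adh1, Ces2c, Rdh7 and Rbp2 the genotypes did not overlap. Over all genes tested both KO animals lay above both WT animals for 14.5% and below both for 19.7%.

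**Figure D4:**
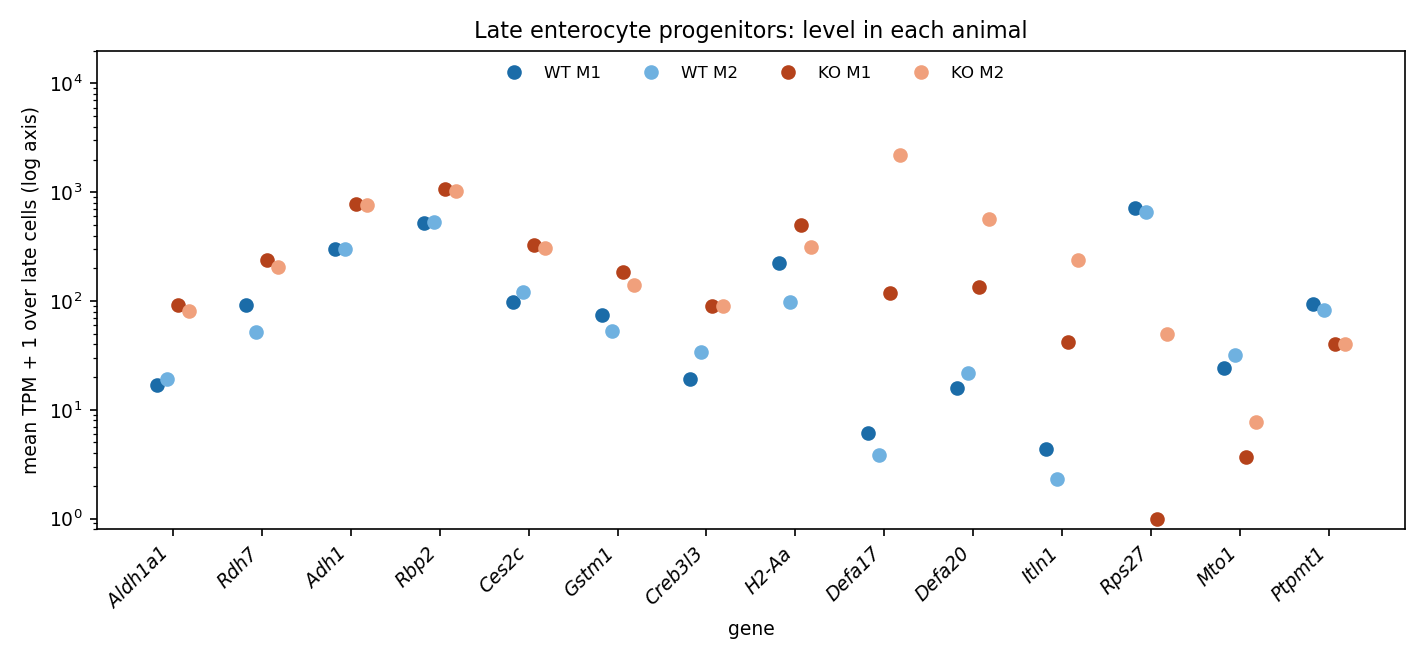
Mean TPM + 1 (log axis) over the late progenitors of each animal for 14 genes, with 1 point per animal. For each of them both KO points lie on 1 side of both WT points, and the alpha-defensin and Itln1 points of KO M2 stand far above those of KO M1.

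Of all genes tested 43.7% were higher in KO, and for 14.5% both KO animals lay above both WT animals. By list, 6 of 7 retinoid handling genes were higher in KO and 4 of 7 did not overlap. Their median difference was 0.99, against -0.06 over all genes tested. The median was 1.17 in run 1, 0.39 in run 2 and 0.62 without the run 1 cells of KO M2. Of 22 xenobiotic and ester metabolism genes, which include Adh1 and Ces2c, 20 were higher in KO and 14 lay above both WT animals (median 0.49; 0.49 and 0.37 in the runs; 0.15 without the run 1 cells of KO M2). Gstm1, a glutathione transferase, stood at 72.99 and 52.4 TPM in WT against 183.02 and 139.4 TPM in KO. The cytochrome gene Cyp3a25 stood at 3.44 and 0 against 34.1 and 16.8 TPM. Cyp3a25 met the filter of a mean of at least 10 TPM only through its KO levels. Of 9 proximal intestine genes 9 were higher in KO and 4 did not overlap (median 0.38; 0.60 and 0.49 in the runs; 0.38 without the run 1 cells of KO M2). Creb3l3 stood at 18.02 and 32.6 TPM in WT against 89.3 and 89.1 TPM in KO (1.83, SE 0.36), and 1.02 without the run 1 cells of KO M2. Brush border hydrolases had a median of 0.30 and fat absorption genes one of 0.24, with 0.54 and 0.57 in run 1 and -0.04 and 0.05 in run 2. Without the run 1 cells of KO M2 these medians were -0.08 and 0.03, so the brush border median turned in direction there and in run 2. No gene of these lists other than Aldh1a1 passed the test.

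The mean position of late cells was 0.52359 and 0.49997 in the WT animals and 0.54973 and 0.62024 in the KO animals. The genotypes did not overlap, with a difference of 0.0732 (exact permutation test, two-sided, p = 0.333, the lowest p possible with 2 animals per genotype). The difference was 0.146 in run 1, with the line drawn from run 1 cells alone, where the KO M2 cells averaged 0.658. It was -0.00253 in run 2, with the line drawn from run 2 cells alone. On the line drawn from all cells, the run 1 cells of KO M2 averaged 0.692. Without these cells the difference on that line was 0.0371. In run 2 alone Aldh1a1, Rdh7, Adh1, Ces2c and Rbp2 differed by 1.96, 1.85, 1.25, 0.87 and 0.39. The part of position in these differences was not tested.

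The other 4 genes that passed included Paneth cell products and rested on few cells. Defa17 and Defa20, alpha-defensins whose near-identical copies make each level uncertain, Gm14851, and the lectin gene Itln1 rose by 3.88 to 6.72 (limma Benjamini-Hochberg adjusted p = 0.0454 each). Gm14851 falls outside the rule for named genes and is given because only 5 genes passed. Defa17, Gm14851 and Itln1 averaged 3.98, 3.74 and 2.32 TPM in WT. The filter, a mean of at least 10 TPM over the 4 animals, therefore kept these genes for the test only through their KO levels. Defa17 levels were 5.09 and 2.87 TPM in WT against 117.9 and 2187 TPM in KO, and 1 cell held 99.5% of the sum in KO M2. Without the Paneth-marker-rich cell of KO M2 (a setting chosen with the values known), Defa17 differed by 2.98, Defa20 by 1.95 and Itln1 by 3.27, and no gene passed (adjusted p 0.0896 for Aldh1a1, at 2.28). The 9 Paneth markers summed to 81.4 and 99.97 TPM in WT M1 and WT M2 and to 688.4 and 9125 TPM in KO M1 and KO M2, with medians over cells of 31.5, 36.3, 91.6 and 24.3 TPM. None of the 9 markers was at 0 in all late cells, and their part in these results beyond that cell was not tested. Defa24 and Defa5 differed by 5.46 and 4.91 without passing. Defa5, at a mean of 1.84 TPM in WT, was likewise tested only through its KO levels.

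In all, 5 genes of 6120 passed as higher in KO (0.0817%) and 0 as lower (0%), with 5.60% of genes at an unadjusted p under 0.05. Without either WT animal 0 genes passed, and without KO M1 or KO M2 2.25% and 1.96% did. In run 1 or run 2 alone, and with no filter on low values, 0 passed. The lower genes with the smallest p were led by Rps27, at 719.5 and 660.1 TPM in WT against 0 and 48.4 TPM in KO (limma adjusted p = 0.106). Rps27 passed as lower without the run 1 cells of KO M2, when no other gene did (-9.43, limma adjusted p = 1.26e-06). Both KO values were then 0 TPM (0 of 10 cells in KO M1 and 0 of 11 in KO M2). Detection of Rps27 differed by run as given above, and that setting leaves the runs less balanced between genotypes. Mto1, a mitochondrial tRNA modifier, stood at 23.3 and 30.7 against 2.68 and 6.75 TPM, and the mitochondrial phosphatase Ptpmt1 at 92.8 and 81.5 against 39.6 and 39.1 TPM. Hist1h2ao, Pick1, the chaperone Hsph1, the complex I subunit Ndufa3 and the proteasome chaperone Psmg4 differed by -3.68 to -0.85. All 8 had a limma adjusted p of 0.106 to 0.608. Mto1, Hist1h2ao and Psmg4 averaged 4.71, 2.04 and 6.61 TPM in KO, so the filter of 10 TPM kept them only through their WT levels. MHC class II was higher in KO for 7 of 7 genes (median 0.93), of which 6 did not overlap. Among all genes tested 43.7% were higher in KO and 14.5% had both KO animals above both WT animals, with a median of -0.06. But the class II value turned in direction between runs, with 1.46 in run 1 and -0.12 in run 2. Without the run 1 cells of KO M2 it stood at 0.31. H2-Aa levels were 224.8 and 96.9 against 494.03 and 313.6 TPM (1.41, SE 0.38, limma adjusted p = 0.544).

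Whether a genotype difference was particular to late progenitors was tested as the KO minus WT difference in late cells minus the mean of those in early progenitors and enterocytes. Of 6360 genes 0 passed (0%; limma, smallest adjusted p = 0.150, for Kcnn4), with 5.11% at an unadjusted p under 0.05. The fit had no term for animal, so values of the same animal in different types were taken as independent. With animal as a block (correlation 0.0954) 0 genes passed, and the smallest limma adjusted p was 0.0873. For Aldh1a1 the KO minus WT difference was 0.92 in early progenitors, 2.25 in late ones and 0.84 in enterocytes (contrast 1.37, SE 0.36, limma adjusted p = 0.942). For Adh1 it was 0.74, 1.36 and 1.28, and for Ces2c 0.79, 1.52 and 0.14. Rdh7 differed by 0.41, 1.68 and 0.11 (contrast 1.42, SE 0.36, limma adjusted p = 0.942).

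Late progenitors made up 13.1% of the cells of WT M1 (exact 95% binomial interval 8.39 to 19.2%), 12.6% of WT M2 (7.96 to 18.6%), 5.81% of KO M1 (2.82 to 10.4%) and 12.9% of KO M2 (8.29 to 18.9%). The KO minus WT difference was -3.46 percentage points (exact permutation p = 0.667), and it was 0.106 points without KO M1. As a share of early progenitors, late progenitors and enterocytes together, the values were 30.99%, 32.3%, 15.6% and 29.3%. Intervals cover counting error only.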

How the data were processed

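Single-cell libraries were made with SMART-Seq2, a plate-based full-length method, per the labels, which also name a droplet kit whose use was not analysed here. The submitters' processing notes name Bowtie, TopHat and RSEM; their versions and the genome build are not given in the sources used here. Deposited values are TPM for 23420 genes, as the authors made them, and each of 677 columns was matched to a library by its title (0 left over). Mean TPM over the cells of an animal was transformed as log2(TPM + 1). KO and WT were compared with limma 3.58.1 (eBayes with trend, 2 residual df) and Benjamini-Hochberg adjustment at 0.05. The contrast over the 3 types was fitted in the same way, with 6 residual df and no term for animal. Whether M1 and M2 are separate animals, and the same ones in both runs, is not spelled out, so p-values measure the spread between these samples. Genes named were the 12 highest and 12 lowest per step, every peaking gene, 5 troughs, Atg16l1 and Atg16l2, passing genes filled up to 8 per direction by unadjusted p among genes with no overlap, the 10 most and 5 least variable, and up to 4 members per list. Members, lists and tests were chosen with earlier results of these data known. The KO against WT test was also run on 5 simulated data sets with known changes. Late cells of both genotypes were drawn at random into 4 animals, so spread between animals came from the draw alone. Log2 changes of 2 passed for 56 to 72% of changed genes and those of 4 for 76 to 87%. Of 5920 unchanged genes, 0 to 0.693% passed. No cell was removed and no doublet caller was run.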

Additional observations from a re-analysis of the deposited data

Results flagged for a closer look

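For 2 of the named genes both KO animals lay below both WT animals in late progenitors and above both in enterocytes. Hist1h2ao differed by -3.68 between KO and WT in late progenitors and by 0.733 in enterocytes. Ptpmt1 differed by -1.12 in late progenitors and by 0.144 in enterocytes. The contrast of late progenitors with the mean of both neighbours was -3.36 for Hist1h2ao and -1.02 for Ptpmt1 (limma Benjamini-Hochberg adjusted p = 0.942 for each), so neither passed. The difference between late progenitors and enterocytes alone was not tested.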

How the results depend on the processing

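Between KO and WT, 5 of 6120 genes (0.0817%) passed. The share was 0% with no filter on low values, at 50 TPM, with log values averaged over cells, in run 1 or run 2 alone, with 8 combinations of run and animal as units, in eBayes without trend, with the highest cell of each animal left out and without the Paneth-marker-rich cell. It was 0.0163% (1 gene, Rps27, lower) with a pseudocount of 10 or without the run 1 cells of KO M2, 0.0817% with a pseudocount of 0.1 and 0.131% with quantile normalization. Leaving out 1 animal gave 0 to 2.25%, where a lone animal is assumed to vary like the other genotype. With the M number as a replicate block it was 0.18% (11 genes, 10 of them higher). Of the 5 genes 4 were among these, and Aldh1a1 was not (adjusted p 0.0628). The animals share only a number (correlation of their deviations -0.0139). The block gave 0 genes for the contrast over types and -3.46 points for the share of cells. That contrast gave 4 genes with no filter, 1 in run 1 and 0 otherwise. Without KO M1 the share of cells differed by 0.106 points (range over animals left out -7.02 to 0.106). Position differed by -0.00253 in run 2, with the line drawn from run 2 cells alone. Aldh1a1 was higher in KO in every alternative run (1.59 to 2.75), with an adjusted p of 0.000430 to 0.989.

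The share of genes that passed the step rule moved with the filter, in the order higher and lower in late than early cells, then higher and lower in enterocytes. With a pseudocount of 10 it was 1.76%, 4.32%, 3.13% and 1.89%. At 50 TPM it was 4.67%, 3.54%, 4.51% and 4.35% of 2485 genes, and with no filter 1.49%, 6.09%, 2.49% and 3.18% of 18502. With log values averaged over cells it was 5.11%, 12.5%, 7.25% and 7.63%. Peaking genes were 3 with a pseudocount of 10, 2 at 50 TPM, 11 with no filter, 14 in run 2, 15 at 1.5-fold and 4 to 10 with 1 animal left out. Turned directions between genotypes were Atg16l1 (0.595 in run 1 and -0.715 to 0.0948 with 1 animal left out) and, in run 2, H2-Ab1 (-0.0777), H2-Eb1 (-0.116) and Hist1h2ao (0.645). Between types they were, in run 2, Ggt1 from early to late (-0.242) and Zg16 and the goblet marker median from late to enterocyte (-0.0442 and -0.0348), and, in run 1, Top2a from late to enterocyte (0.106). The cause was not tested.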
